A study of Mus musculus with 302 samples.

Results

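The enzymes of sterol synthesis are described here through 10 of their genes, Mvk, Mvd, Idi1, Fdps, Fdft1, Lss, Cyp51, Nsdhl, Sc5d and Dhcr7, in 302 mouse livers. The genes were chosen by name, with earlier results of these data known, and every probe that carries one of these names was described. Where a gene has several probes, most results use the one with the widest spread. They are 10 of the 10838 genes named on the array, and 13 of its 23562 probes carry their names: 4 for Fdps and 1 for each of the other 9. Each of the 13 probes had a value in all 302 livers.

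The mice were the F2 offspring of C57BL/6J crossed with C3H/HeJ in both directions, so each mouse carries its own mixture of alleles of the 2 strains. They were fed a 4% fat chow and, from 8 weeks of age on, a Western diet (42% fat, 0.15% cholesterol). After 12 weeks of that diet, at an age of 20 weeks, they were killed following a fast of 12 h. The labels put all livers in 1 group, with no untreated or chow-fed group at the end, and give each mouse a title number between 51 and 362. Each array set the RNA of 1 liver against a pool of RNA from all the mice. The deposited values are log ratios whose base and direction are not stated. They were read as log10, which is likely, so 0.301 stands for 2-fold. The direction was taken as liver over pool from the Y-linked gene Eif2s3y, low in 142 livers that gave 47.0% of the pool, which the labels describe as made of equal portions. Read as pool over liver, these livers would average 54.0-fold above the pool (3.28-fold if the base were 2), where a set of that size cannot average more than 2.13-fold above it.

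Cholesterol is built from acetyl-CoA through mevalonate, which is phosphorylated, decarboxylated and joined into farnesyl diphosphate and then squalene. Squalene is closed to lanosterol, and a string of demethylations, a desaturation and reductions turns lanosterol into cholesterol. In the liver these genes are known as targets of the transcription factor SREBP-2, which is released to the nucleus when the membranes of the endoplasmic reticulum hold little cholesterol and is held back by INSIG proteins when they hold much. Nuclear factor Y and Sp1 are known partners of SREBP at such promoters. Fat and sterol synthesis draw on the same cytosolic acetyl-CoA, and fatty acid synthesis is governed by the related factor SREBP-1c.

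Since the 10 genes moved together among the livers, their promoters are shown first. RefSeq (build GRCm38.p6) gave promoter windows, from 250 bases before to 50 bases after the gene start, for 8 of the 10 genes, all but Fdps and Fdft1. The CCAAT box, to which nuclear factor Y binds, was found on either strand in all 8 genes, and 37.4% of the 32851 promoters of the table hold one. Dhcr7 has 3 windows for its 3 starts, of which 1 held the box, and 8 of the 10 windows of these genes held it. The most CCAAT boxes, 5, stood at the start of Mvk, whose window is shown whole with the matches (CCAAT, or ATTGG for the other strand) in capitals. The last 150 bases of 4 other windows are shown for comparison, as genes with 1 or 2 matches there:

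Mvk, chr5:114444019-114444318, plus strand: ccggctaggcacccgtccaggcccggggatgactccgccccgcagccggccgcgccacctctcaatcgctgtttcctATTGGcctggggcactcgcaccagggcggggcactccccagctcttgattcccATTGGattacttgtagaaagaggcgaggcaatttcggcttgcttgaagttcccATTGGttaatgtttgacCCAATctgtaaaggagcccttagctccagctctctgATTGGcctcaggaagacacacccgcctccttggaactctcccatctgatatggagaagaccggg

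Mvd, chr8:122443373-122443522, minus strand: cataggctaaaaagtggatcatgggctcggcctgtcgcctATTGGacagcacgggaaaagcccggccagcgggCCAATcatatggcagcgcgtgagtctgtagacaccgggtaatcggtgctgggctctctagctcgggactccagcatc

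Idi1, chr13:8885506-8885655, plus strand: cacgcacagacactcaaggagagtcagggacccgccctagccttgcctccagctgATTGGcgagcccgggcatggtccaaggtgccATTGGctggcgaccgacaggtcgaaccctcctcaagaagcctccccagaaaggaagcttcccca

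Lss, chr10:76531505-76531654, plus strand: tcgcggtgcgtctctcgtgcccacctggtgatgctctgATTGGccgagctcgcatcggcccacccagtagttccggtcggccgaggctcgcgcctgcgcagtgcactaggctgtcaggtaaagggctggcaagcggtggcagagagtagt

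Cyp51, chr5:4104648-4104797, minus strand: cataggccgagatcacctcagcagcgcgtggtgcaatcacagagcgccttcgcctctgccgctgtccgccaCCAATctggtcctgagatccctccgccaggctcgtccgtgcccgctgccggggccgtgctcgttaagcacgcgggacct

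Of all promoters, 1.06% held 4 or more CCAAT boxes, as did the windows of Mvk (5) and Nsdhl (4). Of the 5 in the Mvk window, 4 lay on the minus strand with 53 bases between the first base of each and that of the next. The gene Mmab starts 242 bases away on the opposite strand, head to head with Mvk, and 259 bases of the windows of both genes are shared. The GC box GGGCGG, to which Sp1 binds, was found in all 8 genes as well, against 35.7% of all promoters. The E-box CACGTG stood before Sc5d and Dhcr7 and in 7.15% of promoters. The sterol regulatory element was spelled as TCACNCCAC (1.24% of promoters) and in a stricter spelling of 10 bases (0.0913%). Neither spelling was found before any of the 8 genes. Other spellings of the element were not searched, so its absence from these windows is not shown. A match to these letters describes the window, and binding was not measured.

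The liver values themselves came from arrays of similar width, apart from 8. Array medians lay between -0.0115 and 0.0172, and the SD over the probes of an array between 0.0697 and 0.258 with a median of 0.0975. The 8 widest arrays, above 0.145, were kept, and results without them are given where they differ. The Y-linked gene Eif2s3y parted the livers cleanly, with all values of 142 livers at or under -0.968 and all of the other 160 at or above -0.437. This marker and the title number (above 212 in 143 livers, up to 212 in 159) gave 4 blocks of 65 to 82 livers, and correlations were computed on values centred within these blocks. The marker clusters served as blocks alone, with no sex assigned, and were not compared in any test. Whole-liver RNA cannot tell fewer cells of a type from less RNA per cell. Hepatocyte genes Ttr, Apob and Hnf4a were measured, as was the rest of the marker list given below, but a ratio to a pool of livers does not give their level.

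The 10 genes differed widely in how much they varied from liver to liver. Fdps, which joins the C5 units into farnesyl diphosphate, had the widest spread, and Mvk, which phosphorylates mevalonate, the narrowest. The SD over livers had a median of 0.101 over the 10 genes, against 0.0661 over all 23512 probes that had values in 90% or more of the livers. Of the 10 genes, 8 exceeded this median of all probes. The ranges that follow give the lowest, the median and the highest log ratio over the 302 livers.

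At the mevalonate end, Mvk ran from -0.120 over -0.00463 to 0.0982, with an SD of 0.0311 (95% interval by the jackknife over livers 0.0279 to 0.0343), which is lower than that of all but 4.44% of probes. Mvd, which decarboxylates mevalonate diphosphate to isopentenyl diphosphate, ran from -0.162 over -0.0429 to 0.304 (SD 0.0686). Idi1, the isomerase that makes the starter unit of the chain, ran from -0.129 over -0.00694 to 0.428 (SD 0.0694). Between the 5th and the 95th percentile of livers these spans came to 1.27-fold for Mvk, 1.63-fold for Mvd and 1.62-fold for Idi1. Mvk was thus measured over a narrow range, while the SDs of Mvd and Idi1 lay slightly above the median of all probes. The highest values of Mvd and Idi1 stood well clear of their medians.

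Fdps ran from -0.734 over -0.281 to 0.875, with an SD of 0.288 (0.257 to 0.319) and a span of 7.87-fold between the 5th and the 95th percentile. In 137 of the 302 livers it lay more than 2-fold below the pool and in 16 more than 2-fold above it. Its SD exceeded that of 98.9% of probes. Fdft1, squalene synthase and the first enzyme that commits the chain to sterols, ran from -0.364 over -0.0271 to 0.244 (SD 0.120, 2.49-fold). The Fdps values are those of its probe with the widest spread. The other 3 probes of Fdps had SDs of 0.222, 0.119 and 0.0985, so the size of its range depends on the probe.

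The 4 Fdps probes did not all follow each other. The probe used here (10024409183) had r = 0.951 with probe 10024398572 and 0.814 with probe 10024415992. Probe 10024412631 had r between 0.501 and 0.566 with the other 3. Against the mean of the other 9 genes, the 4 probes had r = 0.690 (10024398572), 0.674 (10024409183), 0.475 (10024412631) and 0.700 (10024415992), so the widest probe was not the one that followed the other genes most closely.

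Among the enzymes that act on the sterol ring, Lss, which closes squalene epoxide to lanosterol, varied little, from -0.103 over -0.0129 to 0.272 (SD 0.0482, 1.36-fold). Cyp51, the lanosterol demethylase, ran from -0.499 over -0.0998 to 0.799 (SD 0.168, 3.19-fold). Nsdhl, the dehydrogenase that helps to remove the next methyl groups, ran from -0.184 over -0.0353 to 0.498 (SD 0.0818, 1.80-fold). Sc5d, which adds a double bond to the ring, ran from -0.427 over -0.0251 to 0.366 (SD 0.120, 2.44-fold). Dhcr7, the reductase that completes cholesterol, ran from -0.535 over -0.0921 to 0.578 (SD 0.176, 3.49-fold). The late enzymes Cyp51 and Dhcr7 thus came after Fdps in spread, and Fdft1 and Sc5d shared the next place with SDs that did not differ at 3 digits.

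The high ends of these genes fell on few livers. After block centring, skewness was 2.07 for Lss, 1.81 for Idi1, 1.55 for Nsdhl, 1.39 for Mvd and 1.03 for Cyp51, a long upper tail in each, and -0.28 for Fdft1. Liver 68 held the highest value of Idi1, Cyp51, Nsdhl, Sc5d and Dhcr7. Liver 136 held that of Mvd, Fdps and Lss. Mvk was highest in liver 303 and Fdft1 in liver 84.

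A pool of equal portions would put the mean of a gene's linear ratio near 1. That mean was 0.780 for Fdps, 0.889 for Dhcr7 and 0.908 for Cyp51, and 0.942 to 1.02 for the other 7 genes. Why 3 of the genes lay farther from 1 was not tested, and their levels against the pool carry that limit, unlike their differences between livers.

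**Figure D1:**
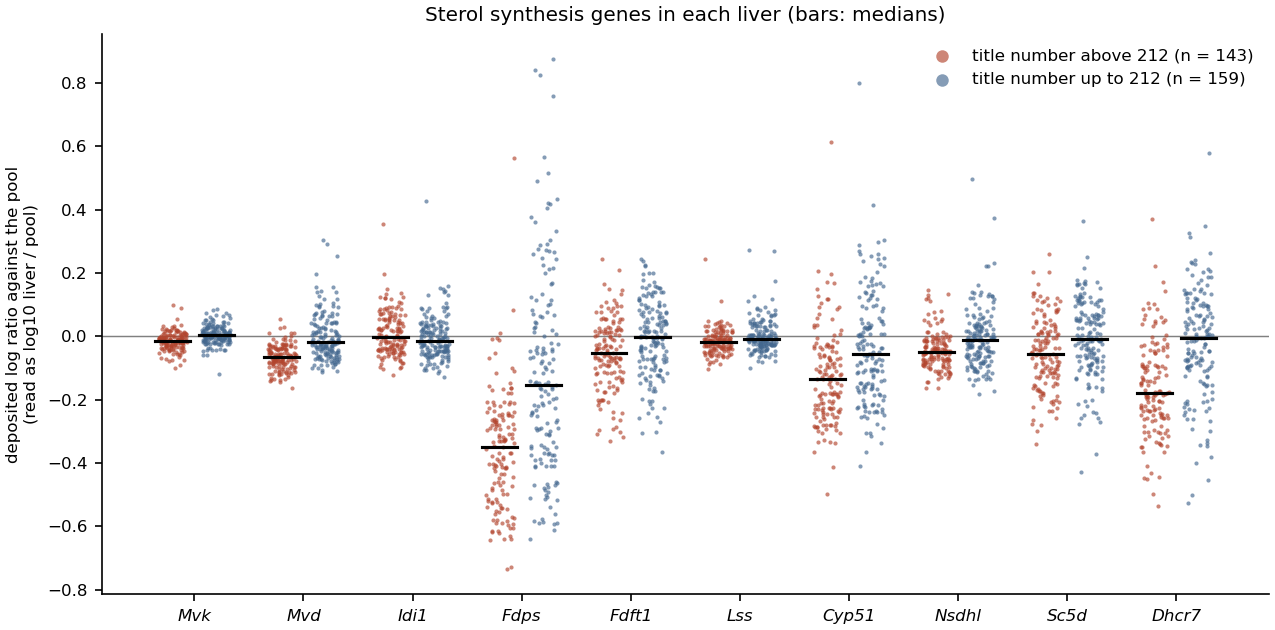
Deposited log ratio of each of the 302 livers for the 10 genes in pathway order, with title numbers above 212 at the left and up to 212 at the right of each gene, and a black bar at each median. Fdps spreads from -0.734 to 0.875, while Mvk stays between -0.120 and 0.0982.

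The 10 genes rose and fell together across the livers. All 45 pairs had a positive Pearson correlation after block centring, with a mean r of 0.405 (jackknife SE 0.0482) and a range from 0.139 to 0.710. Over all pairs of named genes the mean r was 0.00294. In 13 of the 45 pairs r was 0.5 or more, a share of 28.9%, against 1.20% of all pairs of named genes. The first principal component of the 10 genes held 47.8% of their variance and the second 11.1%.

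In 44 of the 45 pairs the adjusted p of limma's moderated regression, over all probes of the array, was under 0.05 with either gene as the predictor, and in each the slope was positive. That share is to be read against a background of many weak correlations. With an adjusted p alone, 8.89% of probes (for Sc5d) to 22.5% (for Fdps) were called positive with a gene of the list. The pair outside the count was Sc5d and Mvk, with r = 0.139, a permutation p of 0.0214 within blocks and adjusted p of 0.0579 with Mvk as the predictor and 0.0812 with Sc5d as the predictor. Permutation tests within blocks, two-sided, gave p under 0.05 for r in 45 pairs, 35 of them at 1e-05, the smallest that 100000 permutations can give.

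The highest r was that of Cyp51 and Nsdhl, which both act in the removal of methyl groups from the sterol ring. It was 0.710 (0.623 to 0.797), Spearman's rho 0.597, and r lay between 0.539 and 0.823 within the 4 blocks. Without the 2 livers farthest from the median of the predictor, r was 0.669. Fdps and Mvd followed with r = 0.694 (rho 0.630), Dhcr7 and Fdps with 0.672 (rho 0.606), Dhcr7 and Cyp51 with 0.667 (rho 0.594), and Dhcr7 and Nsdhl with 0.616 (rho 0.533). The intervals of these 5 pairs overlapped, so no order among them is given.

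Steps that follow each other in the list were not closer than others. The 9 adjacent pairs had a mean r of 0.375 and the 36 other pairs one of 0.413. Fdps at the middle of the pathway had r = 0.672 with Dhcr7 at its end and 0.222 with Idi1 just before it.

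**Figure D2:**
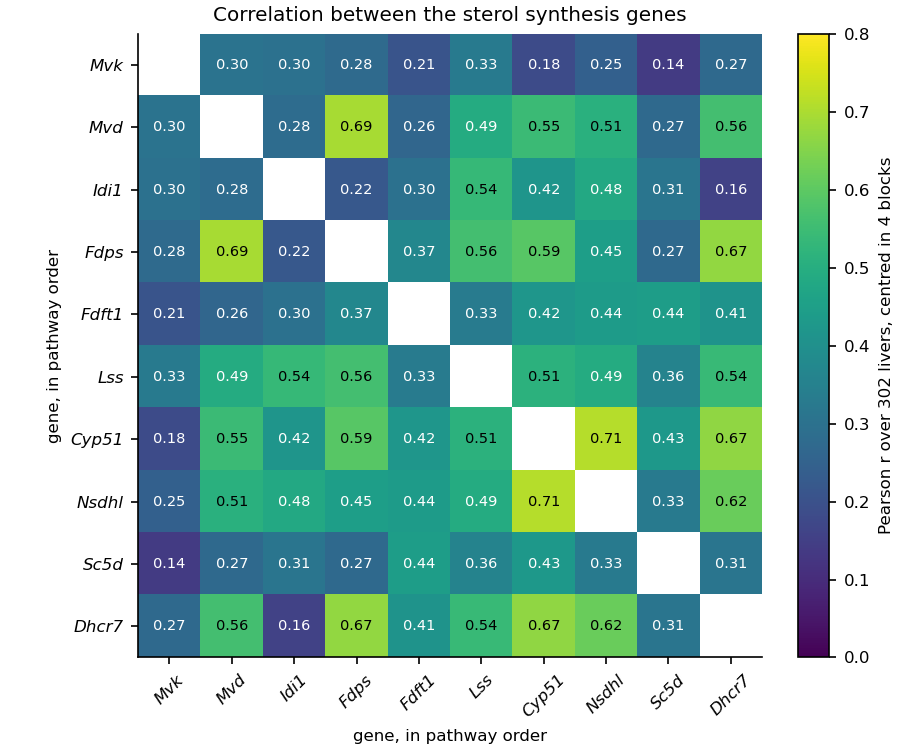
Pearson r of each pair of the 10 genes over 302 livers, centred in 4 blocks, in pathway order on both axes, with darker squares for lower r. The brightest squares are Cyp51 with Nsdhl (0.710) and Fdps with Mvd (0.694), and the row of Mvk stays at or below 0.329.

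Rank correlations, which give less weight to the livers with the highest values, were lower. Spearman's rho was below r in 42 of the 45 pairs, its mean was 0.325, and 6 pairs reached 0.5. By rho, 42 pairs had a permutation p under 0.05. The other 3 pairs were Fdps with Idi1 (rho 0.0881, p = 0.131), Dhcr7 with Idi1 (rho -0.0121, p = 0.834) and Sc5d with Mvk (rho 0.106, p = 0.0701). For Dhcr7 and Idi1 r was 0.159 with p = 0.00535, and 0.0302 without the 2 farthest livers, so that relation rests on those livers. Within the central 90% of livers by the mean of the 10 genes, the mean r over pairs was 0.198, a value that is lowered by the choice of livers on the same genes.

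Each gene was next set against the mean of the other 9, standardized, as a description with no test. Cyp51 was highest with r = 0.741 (0.653 to 0.829; rho 0.636). Nsdhl had 0.703, Dhcr7 0.691, Lss 0.681, Fdps 0.674 and Mvd 0.640, and the intervals of these 6 genes overlapped. Fdft1 had 0.510 (0.432 to 0.588), Idi1 0.479 (0.276 to 0.682), Sc5d 0.455 (0.310 to 0.600) and Mvk 0.353 (0.220 to 0.485). The upper bounds of Fdft1, Sc5d and Mvk lay below the lower bound of Cyp51.

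Idi1 and Lss depended most on the livers taken. Idi1 fell to r = 0.341 without the 2 farthest livers, its rho was 0.280, and its r ran from 0.150 to 0.708 over the 4 blocks. Lss had a rho of 0.466 and an r from 0.281 to 0.780 over the blocks. Cyp51, by contrast, stayed between 0.662 and 0.815 in every block. Differences between blocks were not tested.

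**Figure D3:**
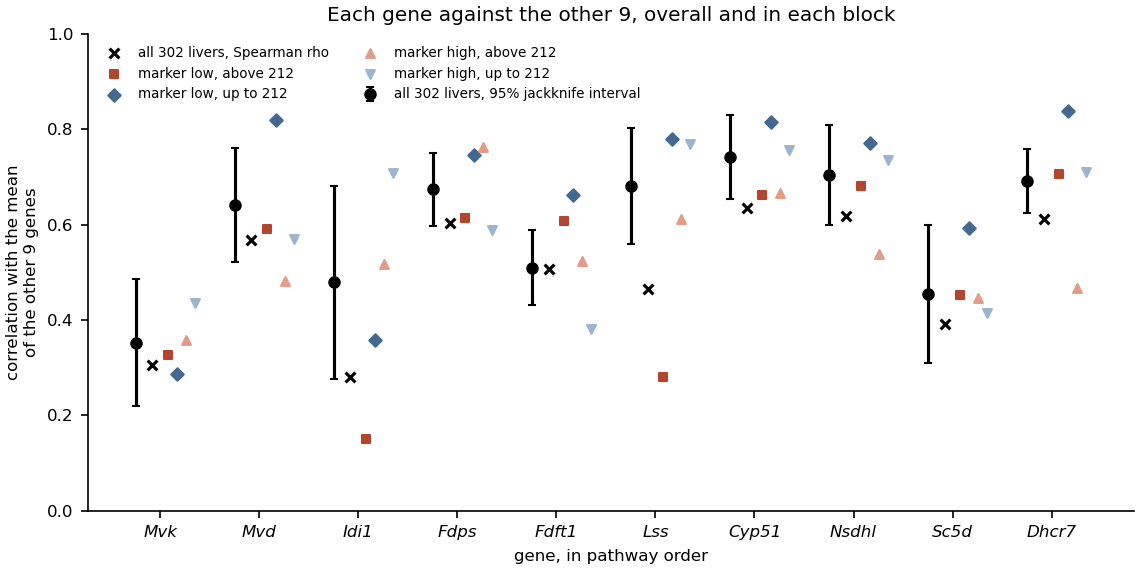
Correlation of each gene with the mean of the other 9, over all livers as Pearson r with its 95% jackknife interval (black circle) and as Spearman's rho (cross), and as Pearson r in each of the 4 blocks (coloured symbols). Cyp51 stays between 0.662 and 0.815 in all blocks, while Idi1 runs from 0.150 to 0.708.

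Liver by liver, all 10 genes lay on the same side of their block mean in a minority of animals. In 13 of the 302 livers all 10 genes lay above their block mean and in 12 all 10 lay below it, while in 98 livers 4 to 6 of the 10 lay above it. In 33 livers at least 9 of the 10 lay above it and in 42 livers at most 1 did. What unrelated genes would give was not computed. The mean of the 10 standardized genes, called the sterol mean below, reached 4.44 SD units in liver 68, 3.42 in liver 303, 2.68 in liver 136 and 2.39 in liver 137, and did not fall under -1.21. Liver 137 was 1 of the 8 wide arrays and the other 3 were not. Across livers the sterol mean had r = 0.0598 with the SD of the array.

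Liver 68 gives the values of the 10 genes in the single animal with the highest sterol mean. Against the pool, Fdps stood 6.70-fold higher, Cyp51 6.30-fold, Dhcr7 3.79-fold, Nsdhl 3.15-fold and Idi1 2.68-fold. In the same liver Sc5d was 2.32-fold, Mvd 1.96-fold, Lss 1.86-fold, Fdft1 1.43-fold and Mvk 1.18-fold above the pool. In liver 303 Cyp51 was 4.10-fold and Fdps 3.65-fold above the pool, while Mvd was at 0.982 of it. Liver 136 had Fdps at 7.50-fold and Mvk at 1.01-fold. All 10 genes were thus above the pool in liver 68 and 9 of the 10 in liver 303.

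Other genes of the array were then ranked by their correlation with the sterol mean, again as a description. Of 23499 probes outside the list, 34 (0.145%) had r of 0.5 or more and 1 (0.00426%) had -0.5 or less. Of the 10 named genes that followed it most closely, 5 stood on the lists of sterol synthesis (Sqle and Erg28) and fatty acid synthesis (Acly, Fasn and Acss2), 2 on that of sterol sensing and uptake (Insig1 and Rdh11) and 3 on no list (Slc25a1, Mmab and Dusp9). Sqle, the squalene epoxidase that acts between Fdft1 and Lss, led with r = 0.691 (rho 0.642; 0.466 to 0.772 over the blocks). Acly, which splits citrate into acetyl-CoA, had 0.675. Fasn, the fatty acid synthase, had 0.665, with a range over blocks from 0.258 to 0.879. Slc25a1, which carries citrate out of mitochondria, had 0.616, and Acss2, which makes acetyl-CoA from acetate, 0.613.

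Erg28, named for a scaffold of sterol demethylation enzymes in yeast, had r = 0.661 (0.519 to 0.783 over the blocks). Insig1, which holds SREBP in the endoplasmic reticulum, had 0.620, and Rdh11, a retinol dehydrogenase, 0.608. Mmab, an enzyme of vitamin B12 metabolism, had 0.668, and Dusp9, a phosphatase of MAP kinases, 0.580. For 9 of these 10 genes rho lay below r. The exception was Dusp9, with a rho of 0.619.

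The genes at the other end had weaker correlations. Pla2g12a, a phospholipase, had r = -0.522, with a range from -0.685 to -0.165 over the blocks. Sqstm1, an autophagy receptor, had -0.496, and the proteasome subunits Psmc4 and Psma6 had -0.488 and -0.429. The murinoglobulins Mug1 and Mug2, protease inhibitors of plasma whose sequences are close enough that probes may share signal, had -0.479 and -0.428. Abcb4, which exports phospholipid into bile, had -0.464. Eif2b4, a translation initiation factor subunit, had -0.465, Cct3, a chaperonin subunit, -0.449, and Dbh, dopamine beta-hydroxylase, -0.426.

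Mvk and Mmab, which share their start region, differed in how they followed the rest. Mmab ran from -0.227 over -0.0147 to 0.245 in the livers (SD 0.0748), a wider range than that of Mvk (SD 0.0311). With the mean of the 9 genes other than Mvk, Mmab had r = 0.671 (0.612 to 0.729) and Mvk 0.353, a difference of 0.318 (0.190 to 0.446). Their own correlation was r = 0.264 (rho 0.265), with adjusted p = 0.000127 by limma. The narrower spread of Mvk moves with this difference, and its part in it was not tested.

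**Figure D4:**
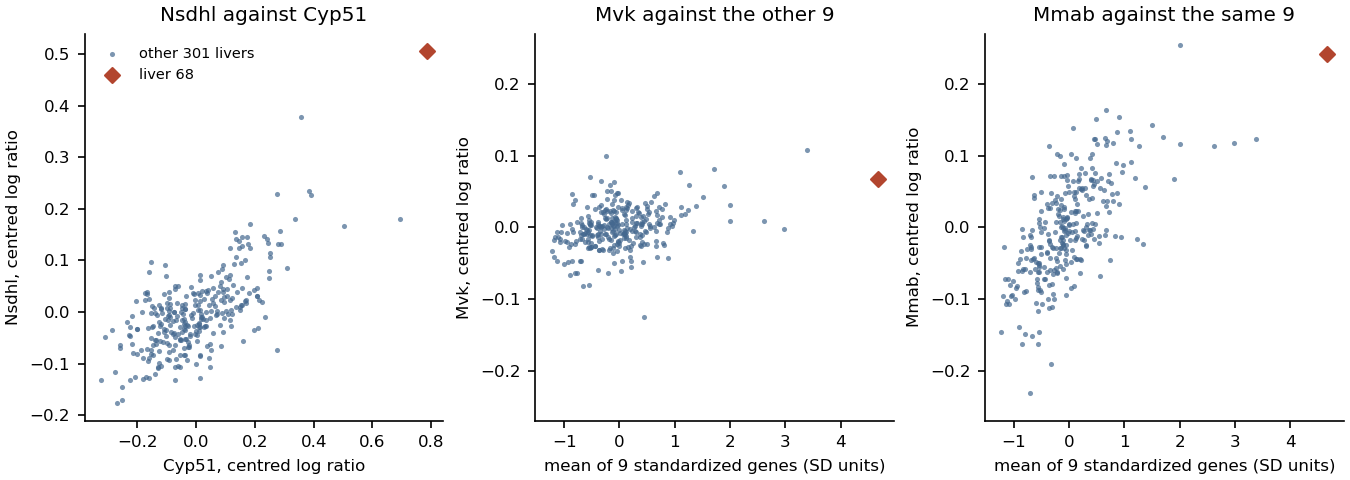
Block-centred log ratios of each liver for Nsdhl against Cyp51 (left), and of Mvk (middle) and Mmab (right) against the mean of the 9 standardized genes other than Mvk, with liver 68 as a red diamond. Nsdhl rises with Cyp51 (r = 0.710), Mvk varies little (r = 0.353) and Mmab follows the mean (r = 0.671).

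Each of the 10 genes was also used on its own as the predictor of every probe. A probe was called when its adjusted p by limma was under 0.05 and its partial r was 0.5 or more, or -0.5 or less. Dhcr7 had the most, with 232 probes positive (0.987% of those tested) and 73 negative (0.31%). Fdps had 141 (0.6%) and 85 (0.362%). Nsdhl had 39 (0.166%) and no negative probe, Mvd 32 (0.136%) and 10 (0.0425%), Fdft1 28 (0.119%) and 3 (0.0128%), and Cyp51 23 (0.0978%) and 4 (0.017%). Lss had 16 (0.0681%) and 1, Idi1 4 (0.017%), Mvk 2 (0.00851%) and Sc5d 1 (0.00425%), the last 3 with no negative probe. Mvk, Sc5d and Idi1, with the lowest r with the other 9 genes, also had the fewest called probes. The probes tested include those of the other 9 genes, so these 2 measures are not independent. Cyp51, with the highest r, had fewer than Dhcr7, Nsdhl, Mvd, Fdft1 or the Fdps probe used. Of 23508 probes tested, Fdps probe 10024398572 had 57 positive and 6 negative. Probe 10024412631 had 18 and 0, and probe 10024415992 had 13 and 2. The place of Fdps by this count thus depends on the probe.

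The named genes closest to each enzyme, 3 for each, fell into overlapping groups. All 30 had a permutation p of 1e-05, not adjusted. They were picked by the highest r in the same livers, so this p is no separate test of them. Cyp51 was closest to Sqle (r = 0.772), Rdh11 (0.729) and Fasn (0.585). Nsdhl was closest to Sqle (0.646), Mmab (0.643) and Fasn (0.633). Dhcr7 was closest to Fasn (0.729), Erg28 (0.702) and Dusp9 (0.696), and Lss to Acly (0.562), Erg28 (0.555) and Insig1 (0.522). Fasn stood among the first 3 for Mvd too, with 0.580, beside Pafah1b3 (0.596), a subunit of platelet-activating factor acetylhydrolase, and the growth factor Fgf10 (0.577).

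The other enzymes had neighbours of their own. Fdps was closest to Acacb (0.718), an acetyl-CoA carboxylase, to Smco4 (0.715) and to Phf1 (0.691). Fdft1 was closest to Insig1 (0.666), Ngef (0.625) and Tk1 (0.611), and Sc5d to Insig1 (0.511), Slc22a29 (0.494) and Tasor (0.442). Idi1 was closest to Stard4 (0.535), a cholesterol carrier, which held between 0.527 and 0.554 in every block, then to Ugt2a1 (0.513) and Gne (0.412). Mvk was closest to Ngfr (0.514), B3galt5 (0.458) and Ap2a1 (0.438).

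Other genes of sterol metabolism followed the 10 in part. Of 14 listed genes of sterol synthesis outside the 10, 5 were measured, with a median r of 0.132 with the sterol mean, against -0.00676 over 10805 other named genes. Sqle and Erg28 had r of 0.3 or more, a level that 1.97% of other named genes and 2.19% of all probes outside the 10 reached. The other measured members were Lbr (0.132), a sterol reductase of the nuclear envelope, Hsd17b7 (0.0469), the reductase that works after Nsdhl, and Ebp (-0.0362), the sterol isomerase. Ebp fell where Cyp51 rose, with r = -0.238 and adjusted p = 0.000298, and where Nsdhl rose, with r = -0.200 and adjusted p = 0.00252, by limma. By limma, 2 to 4 of the 5 genes rose with each of the 10 enzymes, against 8.89% to 22.5% of all probes.

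Among 14 listed genes of sterol sensing and uptake, 8 were measured with a median r of 0.211, and 4 had 0.3 or more: Insig1 (0.620), Rdh11 (0.608), Stard4 (0.477) and Srebf2 (0.343), the gene of SREBP-2 itself. Insig2, the second INSIG gene, had -0.320, opposite in sign to Insig1, where 1.03% of all probes outside the 10 had -0.3 or less. By limma, Insig2 was negative with 8 of the 10 enzymes and passed with neither sign for Cyp51 and Nsdhl. The share of all probes called negative was 10.5% for Mvk, 21% for Mvd, 10.9% for Idi1, 22.8% for Fdps, 10.8% for Fdft1, 13.1% for Lss, 22.6% for Cyp51, 23.1% for Nsdhl, 8.39% for Sc5d and 29.2% for Dhcr7. The r of Insig2 was -0.458 with Fdft1 (adjusted p = 1.59e-14) and -0.0245 with Nsdhl (adjusted p = 0.765). Scap (-0.0126), Npc1 (0.0508) and Mbtps1 (0.0797) lay near 0.

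Fatty acid synthesis genes had the highest median of the lists. Of 20 listed, 16 were measured, with a median r of 0.419 with the sterol mean, and 13 had 0.3 or more. Acly, Fasn, Acss2, Acaca (0.547) and Elovl6 (0.521) had 0.5 or more, while Mlxipl (0.0764), Scd2 (0.135) and Pklr (0.197) were lowest. By limma, 14 of the 16 rose with Mvd, with Fdps, with Cyp51, with Nsdhl and with Dhcr7, and none fell. With Lss 13 rose, with Fdft1 and with Sc5d 11, with Mvk 8 and with Idi1 7. The backgrounds over all probes were 20.9% for Mvd, 22.5% for Fdps, 13.7% for Cyp51, 16.5% for Nsdhl, 21.8% for Dhcr7, 16.3% for Lss, 10.9% for Fdft1, 8.89% for Sc5d, 15% for Mvk and 13.5% for Idi1.

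The remaining lists held few genes that followed the sterol mean. The 5 measured genes at branches from farnesyl diphosphate, such as Ggps1 and the prenyltransferase subunits Fnta and Fntb, had a median r of -0.0285. Sterol export and esterification, with Abcg5 (-0.209), Abca1 (-0.206) and Abcg8 (-0.141), had -0.108 over 7 genes. The 10 measured genes of the bile acid list had a median of -0.0798. Besides synthesis enzymes, the list holds conjugating enzymes (Baat, Slc27a5), carriers (Slc10a1, Abcb11) and regulators (Nr1h4, Nr0b2). Hsd3b7, an enzyme early in bile acid synthesis, was at -0.304. The count of bile acid genes called by limma differed from enzyme to enzyme. With Dhcr7 7 of the 10 fell, with Cyp51 6, with Fdps and with Nsdhl 5, with Mvd 4 and with Lss 3, and of these 6 enzymes Mvd and Nsdhl had 1 gene that rose. With Sc5d 4 rose and none fell, with Idi1 4 rose and 2 fell, with Fdft1 1 rose and 2 fell, and with Mvk none passed in either direction, all to be read against the backgrounds given above (29.2% falling with Dhcr7 and 8.89% rising with Sc5d, for example). The 14 clock genes had a median of 0.00847. None of the 10 lists of cell type markers held a gene with r of 0.3 or more in size. The highest were Eng (0.225) and Kdr (0.222) of endothelium, C1qa (0.212) of macrophages and Col1a1 (0.211) of stellate cells, and hepatocyte markers ran from -0.166 (Hnf4a) to 0.0920 (Ttr).

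**Figure D5:**
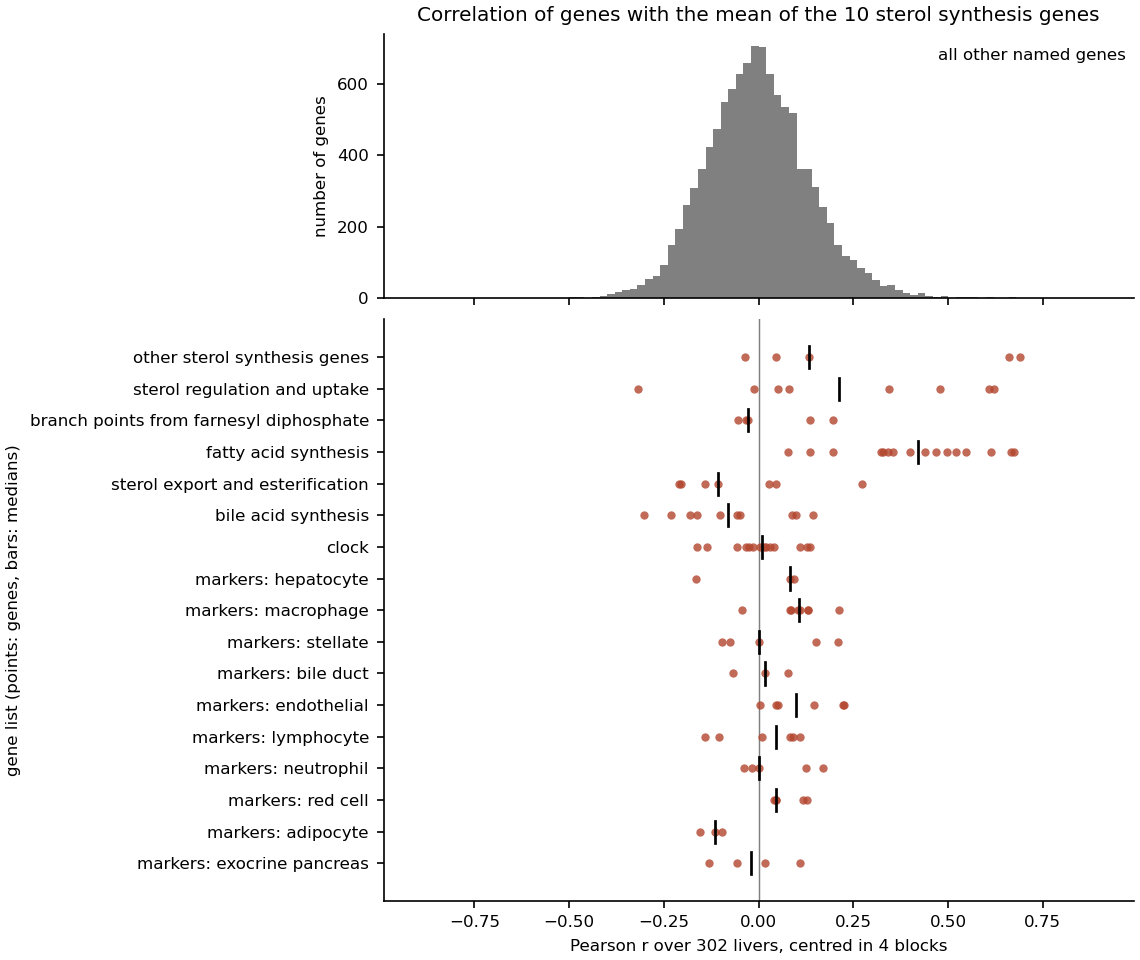
Pearson r with the mean of the 10 standardized enzymes over 302 livers, centred in 4 blocks, as a histogram over 10805 other named genes (top) and as points for each measured gene of each list with a bar at the list's median (bottom). Fatty acid synthesis genes have a median of 0.419, and the histogram centres at -0.00676.

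Mice of an F2 intercross inherit neighbouring genes together, so each enzyme was set against the 5 nearest measured genes on either side. None of these neighbours reached 0.5 in size. The highest was Nadsyn1, next to Dhcr7, with r = 0.455 (rho 0.462), and 2.45% of genes had a larger r in size with Dhcr7. On the other side of Dhcr7, Shank2 had -0.349. Fdps had 0.357 with Scamp3 and 0.338 with Mtx1, and Mvd 0.338 with Rnf166. Genes with a larger r in size with the same enzyme made up 8.88%, 10.4% and 6.33%. Fdft1 had 0.327 with Tnfrsf19 (2.10% larger) and -0.317 with Pinx1 (2.48%). Mvk had 0.313 with Trpv4 (0.796%), and Idi1 0.255 with Wdr37 (3.98%), the gene next to it. The 10 genes lie on 9 chromosomes, with Mvk and Cyp51 both on chromosome 5.

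Livers with title numbers above 212 had lower values of 9 of the 10 enzymes than livers up to 212. Fdps averaged -0.360 ± 0.183 in the livers above 212 and -0.117 ± 0.316 in those up to 212 (SD, n = 143 and 159), a difference of -0.245 (SE 0.0297, adjusted p = 6.13e-14 by limma with the marker cluster as covariate), or 1.76-fold lower. Dhcr7 averaged -0.161 ± 0.149 above 212 and -0.0208 ± 0.172 up to 212, a difference of -0.144 (adjusted p = 1.59e-14). Mvd averaged -0.0658 ± 0.0393 above 212 and -0.00117 ± 0.0748 up to 212, a difference of -0.0647 (adjusted p = 1.07e-16). Cyp51 averaged -0.129 ± 0.147 above 212 and -0.0353 ± 0.174 up to 212, a difference of -0.0966 (adjusted p = 3.41e-07). The ranges of the 2 sets of livers overlapped for each gene.

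Smaller differences were found for Fdft1 (-0.0449, adjusted p = 0.000512), Sc5d (-0.0394, 0.00248), Nsdhl (-0.0374, 0.000152), Mvk (-0.0208, 2.00e-08) and Lss (-0.0182, 0.00189). Idi1 had a difference of 0.0124 with adjusted p = 0.125. Over all probes 30.6% were lower and 33.9% higher in the livers above 212, and the median difference was 0.00158 over all probes and -0.0421 over the 10 genes. The title number is the only label of these ranges, and what else differed between them is not given in the sources used here. Of the 4 Fdps probes, 10024412631 had a difference of -0.00261 (adjusted p = 0.878) and the other 3 were lower.

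Genes of other groups and markers of other cell types differed between the same livers, as did most of the array. Over all probes 30.6% were lower and 33.9% higher above 212, and the counts below are read against these shares. Those of the clock, sterol sensing and uptake, endothelial, neutrophil, red cell and bile duct lists lay near or below them. By the same limma fit, 13 of 16 fatty acid synthesis genes were lower above 212 and none higher. Of the 10 measured genes of the bile acid list, 6 were higher and none lower. Of 5 other sterol synthesis genes 3 were lower and 1 higher, and of 5 branch point genes 4 were lower and none higher. Of 7 genes of sterol export and esterification 3 were lower and 4 higher. Sterol sensing and uptake had 3 lower and 1 higher of 8, and the clock list 4 lower and 5 higher of 14. Of 8 macrophage markers, 6 were lower and none higher, with a median difference of -0.0589 and C1qa at -0.164 (adjusted p = 3.17e-18). Of 5 stellate cell markers, 3 were lower and 2 higher (median -0.0606), with the collagen genes Col1a1 at -0.346 (adjusted p = 4.13e-16) and Col1a2 at -0.112. Of 6 lymphocyte markers, 4 were lower and 1 higher, among them Ccl5 at -0.122, and of 6 endothelial markers 2 were lower and 1 higher, with Kdr at -0.0712. The bile duct, neutrophil, red cell, adipocyte and pancreas lists had at most 1 lower gene each, and 3 of 4 pancreas markers were higher. Of the 3 hepatocyte genes measured, Hnf4a (0.0271) and Apob (0.0808) were higher above 212 and Ttr (-0.0190) was lower. The part of these markers in the differences of the enzymes was not tested.

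The spread of the enzymes was also narrower above 212 in 9 of the 10 genes, without a test. The ratio of SDs, above 212 over up to 212, had a median of 0.857 over the 10 genes and 0.975 over all probes, and was below 1 for 55.2% of probes. Mvd had the lowest ratio at 0.525. Mvk was the gene that was not narrower, with an SD of 0.0294 in either range.

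Blocks took up 5.20% of the variance of Lss and 30.0% of that of Dhcr7, with the other genes between. Medians by block are given without a test. Dhcr7 had medians of -0.237 above 212 and -0.0929 up to 212 in the livers with low Eif2s3y, and of -0.121 above 212 and 0.0368 up to 212 in those with high Eif2s3y. Fdft1 had -0.00699 above 212 and 0.0744 up to 212 with low Eif2s3y, and -0.0790 above 212 and -0.0711 up to 212 with high Eif2s3y. Sc5d had -0.00440 above 212 and 0.0591 up to 212 with low Eif2s3y, and -0.0983 above 212 and -0.0677 up to 212 with high Eif2s3y. Fdft1 and Sc5d were thus ordered alike over the marker clusters and opposite to Dhcr7, and within blocks Fdft1 and Sc5d had r = 0.445 (rho 0.436).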

How the data were processed

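Per the labels, liver RNA (Cy3) of each of 302 mice was hybridised against 1 pool (Cy5) of RNA from them. Per the labels' protocols, spin columns with DNAse gave the RNA, and an automated aminoallyl method amplified it. The authors deposited 1 table of 23562 probes by 302 livers, read here as log10 ratios. How the arrays were scanned and normalized is not given in the sources used here. Base and direction of the log ratio are not stated. The median of Eif2s3y in the 53.0% of livers of its high cluster was 0.195, nearer to the 0.276 that log10 would give than to 0.916 (log2) or 0.635 (natural log), and arrays, all of 1 dye orientation, correlated between -0.519 and 0.777, as animals of 1 cross against their own pool can. The direction, liver over pool, was taken from the mean of Eif2s3y in its low cluster and the equal portions of the pool.

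Probe names came from the array's annotation: 13655 probes had 1 symbol, 48 several and 9859 none listed. Names were updated through gene identifiers to 10838 genes. Probes with values in at least 90% of livers (23512, with 10815 named genes) were used as deposited, 0.0831% of all deposited values were missing, and no further normalization was made. A gene with several probes was represented by the one with the largest SD of block-centred values. The 4 blocks (77, 65, 82 and 78 livers) combine Eif2s3y below or above -0.8 with title numbers up to 212 or above.

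Correlations are Pearson's r and Spearman's rho on block-centred values, with 100000 permutations within blocks (two-sided), and again without the 2 livers farthest from the median of the predictor. Intervals are 95% intervals by the jackknife, leaving out each liver in turn (1.96 SE), a choice made after the data were seen. Every probe was regressed on each gene with the blocks as covariates in limma 3.58.1 (R 4.3.3), two-sided, with Benjamini-Hochberg adjustment over all probes. Title ranges were compared in limma with the marker cluster as covariate. Scripts were tested on simulated data. Python 3.11.15, numpy 2.4.6, scipy 1.17.1 and pandas 2.3.3 were used.

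The genes named are the 13 probes of the 10 genes, the measured genes of fixed lists, the 10 highest and 10 lowest genes by r with the mean of the 10, the 3 closest genes to each and neighbours with r of 0.5 or more in size. Neighbours below that level were named after their values were seen. The 10 genes and the lists were chosen with earlier results of these data known. The labels do not say how livers were handled beyond this, so p-values measure the spread between these livers. The number of arrays limits the precision.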

Additional observations from a re-analysis of the deposited data

How the results depend on the processing

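The mean r over the 45 pairs was 0.405, and of the alternatives run the central 90% of livers by the mean of the 10 (0.198) moved it beyond its interval. Pairs with r of 0.5 or more numbered 13, against 6 by Spearman's rho, 4 in the central 90%, 24 in the livers with low Eif2s3y and numbers up to 212 and 7 in those with high Eif2s3y and numbers above 212. The median r of a gene with the other 9 was 0.657, and it was 0.552 by rho, 0.428 in the central 90% and 0.513 with high Eif2s3y above 212. Other probes with r of 0.5 or more in size with the mean of the 10 numbered 35. They were 83 without centring, 94 centred in the marker clusters only, 54 by rho, 59 without the 2 farthest livers and 16 in the central 90%. In single blocks they were 518 (low, up to 212), 520 (low, above 212), 35 (high, up to 212) and 20 (high, above 212). Probes called with a gene had a median of 29 over the 10 genes and 7728 (median of the 10 counts) by adjusted p alone, which asks for no size of r. The cause of these shifts was not tested. Of the 45 pairs, 6 had an r below 0 under some alternative. Dhcr7 with Idi1 was at -0.0121 by rho, -0.166 in the central 90% and -0.0121 in the livers with low Eif2s3y above 212, where Sc5d had -0.153 with Idi1 and -0.0310 with Mvk. The r of Dhcr7 with Idi1 was higher, 0.380, with the first principal component of the array values removed, and 0.381 with high Eif2s3y up to 212. In the central 90%, Fdps with Idi1 was at -0.0910, Cyp51 with Mvk at -0.0775 and Sc5d with Mvk at -0.0407, and Fdft1 with Mvd was at -0.0191 with high Eif2s3y up to 212. No r of a gene with the other 9 changed sign. Neither did the r of the 10 highest or 10 lowest genes with the mean of the 10. Some values near 0 did. The median title-range difference over all probes, 0.00158, was -0.000233 with arrays centred on their medians. The difference of Fdps probe 10024412631 went from -0.00261 to 0.00110 without the 8 wide arrays. Hsd17b7 had r = 0.0469 with the mean of the 10 but a rho of -0.0704. Of the values for single genes and the pairs named, 528 stayed within their interval or side of the threshold and 141 moved. The 9 enzymes lower above 212 remained 9 without the covariate, without the 8 wide arrays and with arrays centred on their medians. No paired analysis was possible because the labels give 1 group.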

Other observations

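Among probes without a gene name here, 17 had r of 0.5 or more with the mean of the 10 enzymes, and the highest had 0.761, above the 0.691 of Sqle, the highest named gene outside the 10. Their genes were not analysed here.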
